A study of Mus musculus with 4 samples.

Results

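Growth factors that a cell secretes are translated at the endoplasmic reticulum, so where their mRNAs lie in a migrating cell bears on where the ligand is made. *Gdf11* and 9 other genes for secreted growth factors (*Gdf15*, *Tgfb1*, *Tgfb2*, *Tgfb3*, *Bmp4*, *Inhba*, *Vegfa*, *Pdgfa* and *Hbegf*) were compared between the cell bodies and the protrusions of mouse melanoma cells. They were chosen as a list of gene names, with earlier results of these data known, and all 10 were found among the 16537 genes of the expression table. *Gdf11* is a separate case, because the study took it up as a candidate from these same libraries. Its direction, size of change, rank and p-values here are therefore not independent evidence.

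The cells were YUMM1.7, a mouse melanoma line genetically engineered to resemble the human tumor, with activated *Braf* and inactivated *Cdkn2a* among its lesions. All 4 libraries came from the same line without further treatment, labelled wild type, grown overnight on porous membrane inserts whose underside was coated with fibronectin at 30 µg/mL. Cell bodies were scraped from the top of the membrane, and protrusions, which had passed through the pores, were lysed from what remained. There were 2 biological replicates of each fraction, each made from 6 inserts, sequenced as rRNA-depleted, strand-specific total RNA. A fraction is a pool of many cells, so a higher share of a transcript in protrusions and a different mixture of cells contributing protrusions cannot be told apart. Values are TPM, in which reads are divided by gene length and scaled to the same sum of 1000000 in each library. A fold change is therefore a change in share of the RNA counted in a fraction, noncoding genes included, not in molecules per cell.

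The libraries held 25854880 to 30994908 reads assigned to genes and 14784 to 15123 detected genes. Of 9 melanocyte lineage markers 4 were in the table, with a summed level of 9.11 to 11.4 TPM, made up mainly of *Mitf* at 5.12 to 6.17 TPM and *S100b* at 2.55 to 5.86 TPM, while the pigment genes *Tyrp1*, *Dct* and *Mlana* were not among its rows. *Cdkn2a* was listed at 4.82 to 5.69 TPM, a gene-level value that does not show which exons were covered. The summed level of 10 hepatocyte markers was 54.4 TPM in protrusions replicate 1 and 0.918 to 2.90 TPM in the other 3 libraries, so that library stood apart, and the values of *Gdf11* and the counts over the pathway lists are also given without it.

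Ligands of the TGFβ superfamily are made as precursors with a signal peptide, cleaved by furin-type proteases, and bind type I and type II receptor kinases that phosphorylate Smad proteins. GDF11, the activins and the TGFβ isoforms act through Smad2 and Smad3, while bone morphogenetic proteins (BMPs) act through Smad1, Smad5 and Smad8. VEGF, PDGF and EGF family ligands also enter the secretory pathway but signal through receptor tyrosine kinases. An mRNA with a signal peptide is usually brought to the endoplasmic reticulum during its translation, whereas many mRNAs known from protrusions are carried there by purine-rich elements in their 3′ untranslated regions (UTRs).

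The first 30 bases of 5 coding sequences are shown because they encode the start of the signal peptide, the feature that these mRNAs share. Capitals mark the start codon, and the sequences are from the longest complete coding transcript of each gene in GENCODE M21 (GRCm38).
Gdf11: ATGgtgctcgcggccccgctgctgctgggc
Tgfb1: ATGccgccctcggggctgcggctactgccg
Tgfb3: ATGaagatgcacttgcaaagggctctggta
Inhba: ATGcccttgctttggctgagaggatttctg
Pdgfa: ATGaggacctgggcttgcctgctgctcctc
Of the first 30 codons of *Gdf11*, 19 encoded hydrophobic residues, with a longest run of 11 among the first 40. The other members had 11 to 18 such codons, the lowest being *Vegfa*, whose longest annotated coding sequence begins upstream at a non-AUG codon.

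Since GA-rich stretches are the element type at issue in protrusion localization, the 30-base window with the most purines was found in each 3′ UTR on the mRNA strand. Capitals mark G and A.
Gdf11: GGAGGGGGGAGGGGttGGGAGAAGAGAAGG
Inhba: GGGGGGGGGGAGGGGGGAGAAGAGAGAAtG
Bmp4: AAAAAAAAAAAAAAAAAAAGAAAGAAAGAA
Pdgfa: AcAAAAAAGAAAAAAAAAAcAAAAAAAAAA
Tgfb1: AcctGGGGGGcccAttAAAGGtGAcAGAGG
The *Gdf11* window began 169 bases into its 2811-base 3′ UTR and held 28 purines of 30, a number reached by 9.67% of all 3′ UTRs examined. Among 1516 3′ UTRs of similar length (within 1.25-fold), 16.0% reached it. The longest unbroken purine run was 18 bases in *Gdf11*, a length reached by 27.4% of the 3′ UTRs of similar length. It was 40 bases in *Bmp4*, 29 in *Hbegf*, 28 in *Inhba*, 17 in *Tgfb2* and *Pdgfa*, 15 in *Vegfa* and 13 in *Tgfb3*. It was 6 bases in *Tgfb1* and 5 bases in *Gdf15*, whose 3′ UTRs are 135 and 150 bases long. Such a stretch is a description of the letters and not a mapped element, and its relation to enrichment was not tested.

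Of the 10 growth factor mRNAs *Gdf11* alone passed the test as higher in protrusions. The gene encodes growth differentiation factor 11, a ligand close to myostatin, and lies at chr10:128884546-128891718 on the minus strand (mm10). Its level was 8.99 and 6.22 TPM in cell bodies replicates 1 and 2 and 17.2 and 20.3 TPM in protrusions replicates 1 and 2, from 251, 146, 421 and 627 reads. Both protrusion libraries lay above both cell body libraries, and the lowest protrusion value was well clear of the highest cell body value. The means were 18.8 ± 2.20 TPM in protrusions and 7.60 ± 1.96 TPM in cell bodies (SD, n = 2 each). The fitted log2 fold change was 1.27 ± 0.21 (SE), or 2.41-fold, with a 95% confidence interval of 0.74 to 1.79 and an adjusted p of 0.0382 by limma with Benjamini-Hochberg adjustment over 11400 genes. Enrichment was 1.92-fold within replicate 1 and 3.27-fold within replicate 2, so the direction was the same in both and the size was not. By fold change it ranked 33 of 11400 genes tested. With any 1 library left out the log2 fold change was 1.02 to 1.52, and it was 1.38 without protrusions replicate 1. The call was lost each time. Such a fit leaves 1 sample in a fraction and called far fewer genes or none, so the lost call does not set *Gdf11* apart. The gene model behind the table ends 2251 bases short of the GENCODE 3′ end, and reads from those bases were not counted, although the purine-rich window lies inside the counted part.

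**Figure D1:**
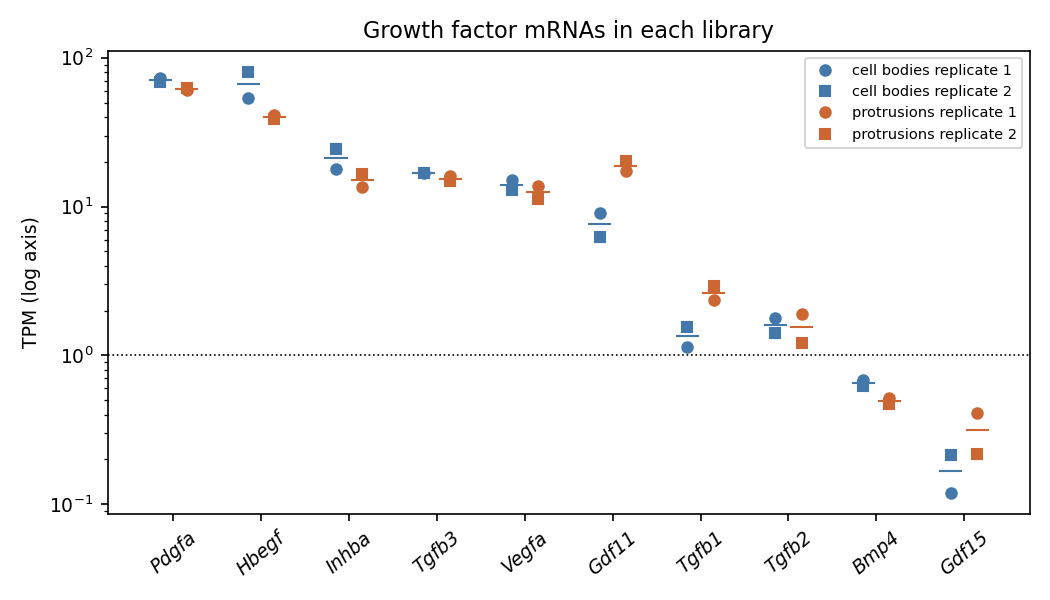
TPM of each growth factor mRNA in the 4 libraries on a log axis, ordered by mean level; circles and squares are replicates 1 and 2, short lines are means of 2 libraries, and the dotted line marks 1 TPM. *Gdf11* rises from 6.22 and 8.99 TPM in cell bodies (blue) to 17.2 and 20.3 TPM in protrusions (orange), while *Pdgfa*, *Tgfb3* and *Vegfa* stay close to their cell body levels.

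Of the 10 growth factors, 8 had a mean of at least 1 TPM and were tested. *Gdf11* alone was higher in protrusions at an adjusted p under 0.05 in limma, beside 2.99% of all genes tested, and none was lower, beside 4.25% of all genes tested (7.25% in either direction). At an unadjusted p under 0.05, 2 were higher and 1 was lower. A fit of the recovered reads with limma voom also called 1 higher and 0 lower. With the replicate number as a block 1 was higher and 1 was lower (*Hbegf*), beside 8.08% and 13.3% of all genes tested. The median log2 fold change of the 8 was −0.14, against −0.07 over all genes tested. With only 8 members, 1 call is too few to set the group apart from the background.

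The 3 TGFβ isoforms, which regulate growth arrest, matrix production and epithelial-mesenchymal transition, did not pass the test, and their differences from each other were not tested. *Tgfb1* was at 1.15 and 1.55 TPM in cell bodies and 2.37 and 2.92 TPM in protrusions, from 37, 42, 67 and 104 reads. Both protrusion libraries were above both cell body libraries, at low levels. The log2 fold change was 0.77 ± 0.26 (SE), with a 95% interval of 0.14 to 1.40 and an adjusted p of 0.111 in limma, and the 2 replicates gave nearly the same value. It therefore missed the threshold, while its interval includes a 2-fold enrichment. *Tgfb2* was at 1.78 and 1.42 TPM in cell bodies and 1.90 and 1.21 TPM in protrusions. The fractions overlapped, and the log2 fold change was −0.05 (95% interval −0.76 to 0.66, adjusted p = 0.926 in limma). *Tgfb3* was the most abundant isoform, at 16.7 and 16.8 TPM in cell bodies and 15.9 and 14.8 TPM in protrusions. The protrusion libraries were lower by a small margin, with a log2 fold change of −0.12, and the 95% interval of −0.45 to 0.22 leaves out a 2-fold change in either direction. *Ttll5*, a gene on the opposite strand, overlaps *Tgfb3* over 5152 bases, and no source used here gives whether reads were counted by strand.

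*Inhba* encodes the βA subunit of activin A, a ligand that shares receptors with GDF11. Its level was 17.8 and 24.4 TPM in cell bodies and 13.6 and 16.6 TPM in protrusions. Both protrusion libraries lay below both cell body libraries, the opposite order to *Gdf11*. The log2 fold change was −0.46 (95% interval −0.96 to 0.04, adjusted p = 0.183 in limma), which did not pass, and without cell bodies replicate 2 it was −0.24. Non-coding genes overlap parts of *Inhba*, *Tgfb2* and *Bmp4* on the opposite strand as well, and the protein-coding *Gm15217* overlaps *Bmp4* there over 90 bases.

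*Bmp4* and *Gdf15* were too low to test. *Bmp4*, a BMP ligand of the Smad1/5/8 branch, was at 0.683 and 0.619 TPM in cell bodies and 0.520 and 0.471 TPM in protrusions, from 14 to 21 reads per library. The protrusion values were the lower ones, but the exact Poisson 95% intervals of the read counts, which cover counting error only, all overlapped (13.0 to 32.1 reads for the highest library and 7.65 to 23.5 for the lowest). *Gdf15*, a stress-induced and distant member of the superfamily, was at 0.120 and 0.213 TPM in cell bodies and 0.410 and 0.217 TPM in protrusions, from 2, 3, 6 and 4 reads. A difference was not detectable for either gene at this depth.

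*Hbegf* was the member with the largest decrease in protrusions. It encodes heparin-binding EGF-like growth factor, made as a membrane-anchored precursor and released by ADAM proteases to act on the EGF receptor. Its level was 53.6 and 80.4 TPM in cell bodies and 41.5 and 38.7 TPM in protrusions, from 1330 to 2476 reads per library. Both protrusion libraries were below both cell body libraries, and the spread was mostly between the cell body libraries. The log2 fold change was −0.70 ± 0.21 (SE), with a 95% interval of −1.21 to −0.20 and an adjusted p of 0.0871 in limma. Without cell bodies replicate 2 it was −0.41 (adjusted p = 0.229 in limma). With the replicate number as a block, which compares the fractions within each replicate, the adjusted p was 0.0136 in limma, beside 13.3% of all genes tested called lower and 8.08% called higher in that fit. *Gdf11* was the growth factor called higher there, with an adjusted p of 0.00248 in limma, so that 2 of the 8 passed against 21.4% of all genes tested.

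*Vegfa*, the main angiogenic factor of the VEGF family, was at 15.1 and 13.0 TPM in cell bodies and 13.7 and 11.3 TPM in protrusions. The fractions overlapped, and the log2 fold change of −0.16 (95% interval −0.58 to 0.26, adjusted p = 0.554 in limma) leaves out a 2-fold change. *Pdgfa*, a ligand of the receptor encoded by *Pdgfra*, was at 73.1 and 69.0 TPM in cell bodies and 61.1 and 62.1 TPM in protrusions. Its protrusion libraries were both lower, with a log2 fold change of −0.20 (95% interval −0.48 to 0.07, adjusted p = 0.264 in limma).

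**Figure D2:**
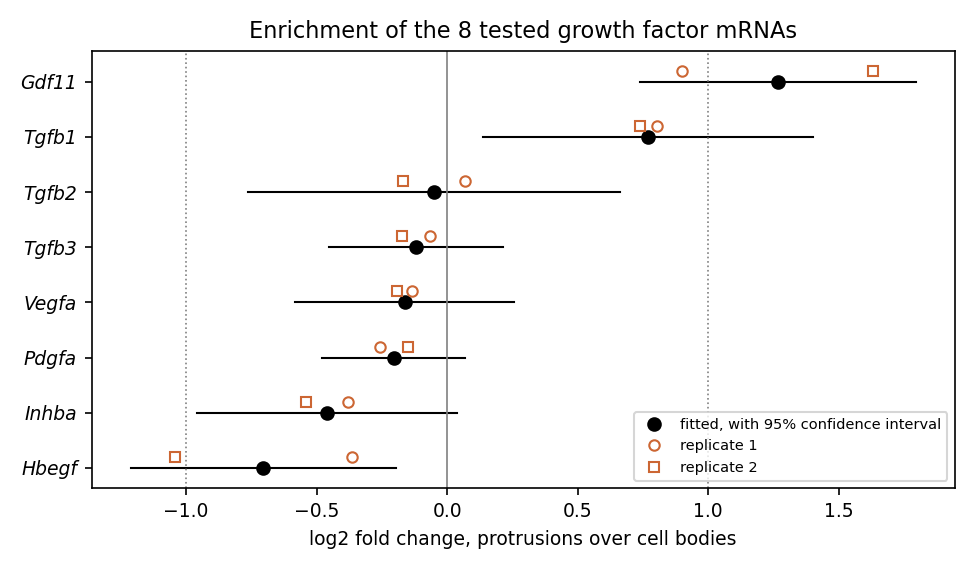
Protrusion enrichment (log2 fold change against cell bodies) of the 8 tested growth factor mRNAs; filled points are fitted values with 95% confidence intervals, open circles and squares are the changes within replicates 1 and 2, and dotted lines mark 2-fold. *Gdf11* (1.27) is at the top, *Tgfb1* (0.77) follows with an interval above 0 that did not pass after adjustment, and *Hbegf* (−0.70) is at the bottom.

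The fractions did not overlap for 8 of the 10 growth factors. In 3 of them (*Gdf11*, *Tgfb1* and *Gdf15*) both protrusion libraries were above, an order shown by 26.4% of all genes tested. In the other 5 (*Tgfb3*, *Bmp4*, *Inhba*, *Pdgfa* and *Hbegf*) both were below, an order shown by 37.0% of all genes tested. *Gdf15* and *Bmp4* were not among the genes tested, and the order of *Gdf15* rested on 3 against 4 reads.

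The order of the members by level differed between the fractions mainly through *Gdf11*. In cell bodies *Pdgfa* and *Hbegf* were highest and overlapped each other, *Inhba*, *Tgfb3*, *Vegfa* and *Gdf11* followed without overlap between neighbours, and *Tgfb2* and *Tgfb1*, which overlapped, came before *Bmp4* and *Gdf15*. In protrusions *Gdf11* came next after *Pdgfa* and *Hbegf*, and its libraries did not overlap those of *Tgfb3*, the next in order. *Tgfb3*, *Inhba* and *Vegfa* overlapped in turn there. These levels are TPM, per length of the counted gene model, and the length implied by the values was far below the annotated transcript for *Gdf11* (about 1810 against 4062 bases), *Inhba* (1530 against 6390) and *Pdgfa* (1020 against 2060), so the order between genes depends on the model used.

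The enrichment of *Gdf11* was also set directly against that of each other tested growth factor within the same libraries. Every row of this fit shared the *Gdf11* values, and the prior degrees of freedom were infinite, so its p-values may be too small. The choice of *Gdf11* from these same libraries may also make the differences too large. The difference in log2 fold change was largest against *Hbegf*, at 1.97 (95% interval 1.12 to 2.82, adjusted p = 0.000105 in limma, 0.00500 with the errors of both genes added). It was 1.73 against *Inhba*, 1.47 against *Pdgfa*, 1.43 against *Vegfa*, 1.39 against *Tgfb3* and 1.32 against *Tgfb2*, with adjusted p of 0.00120 to 0.0377 in limma. Against *Tgfb1* it was 0.50, and the interval of −0.66 to 1.65 holds no difference as well as a 2-fold difference in favour of *Gdf11*. Passing this comparison was not particular to the growth factors, since *Gdf11* was more enriched than 81.6% and less enriched than 0.0263% of all genes tested by the same test. With the block on replicate number none of the 7 differences passed (adjusted p 0.147 to 0.573 in limma), and 6 had lost their calls without protrusions replicate 1 (adjusted p 0.0935 to 0.153 in limma) or without protrusions replicate 2 (0.301 to 0.385).

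**Figure D3:**
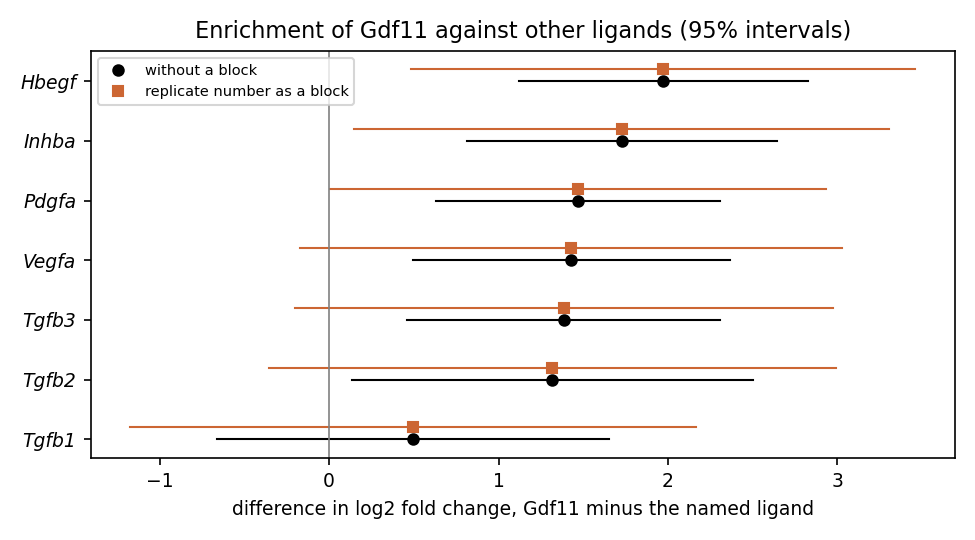
Difference in log2 fold change between *Gdf11* and each other tested growth factor, with 95% confidence intervals before adjustment; black marks the unblocked and orange the blocked fit. All 7 differences are above 0, from 0.50 for *Tgfb1* to 1.97 for *Hbegf*, and the blocked intervals are wider.

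Among the tested ligands with a signal peptide, *Gdf11* had the highest fold change, in the libraries from which the study picked it. Of 137 such ligands listed, 105 were in the table and 49 were tested, and 11 of the 49 (22.4%) had a fold change above 1, against 43.1% of all genes tested. Their median log2 fold change was −0.39, and the median over all genes was −0.07. In limma 2 were called higher (*Gdf11* and *Vegfb*) and 3 lower (*Ereg*, *Areg* and *Sema3a*), beside 2.99% and 4.25% of all genes tested. With the replicate block 3 were higher and 14 lower, beside 8.08% and 13.3% of all genes tested. *Vegfb*, a VEGF family ligand of the receptor encoded by *Flt1*, was at 12.5 and 12.9 TPM in cell bodies and 23.2 and 27.8 TPM in protrusions. Its log2 fold change of 0.97 (adjusted p = 0.0355 in limma, 0.66 and 0.05003 after GC correction) was next after *Gdf11*, and *Tgfb1* followed. *Sema3a*, a secreted guidance factor that binds neuropilin, was lowest, at 259 and 366 TPM in cell bodies and 152 and 139 TPM in protrusions, a log2 fold change of −1.08 (adjusted p = 0.0382 in limma). Of 5 tested VEGF and PDGF ligands other than *Vegfa* and *Pdgfa*, *Vegfb* was the gene called higher and 0 were lower, and with the replicate block *Pdgfc* was called lower (−0.56, adjusted p = 0.0489 in limma).

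**Figure D4:**
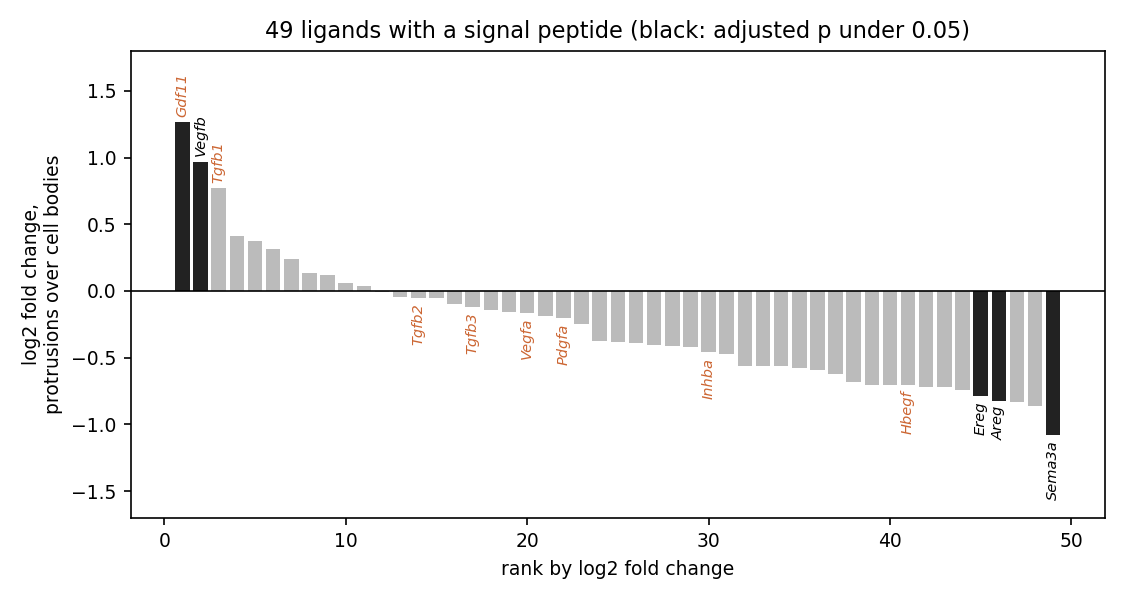
Protrusion enrichment (log2 fold change against cell bodies) of 49 tested ligands with a signal peptide, ranked; black bars have an adjusted p under 0.05 in limma, and the growth factors described above are named in orange. *Gdf11* (1.27) and *Vegfb* (0.97) are the called bars above 0, 38 of the 49 bars are below 0, and *Sema3a* (−1.08) is last.

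None of 10 tested receptors of the TGFβ superfamily was called in limma, 2 had an unadjusted p under 0.05, both lower, and 1 was called lower in limma voom. With the replicate block 2 (*Bmpr1a* and *Tgfbr1*) were called lower, beside 13.3% of all genes tested. Their median log2 fold change was −0.30. *Bmpr1a*, a type I BMP receptor and the one with the smallest p, was at 81.3 and 84.5 TPM in cell bodies and 62.1 and 47.8 TPM in protrusions (log2 fold change −0.60, adjusted p = 0.0691 in limma, 0.0142 with the block). Of 2 other tested ligands of the superfamily none was called, with none at an unadjusted p under 0.05 and none in limma voom, and *Bmp2* was at 52.4 and 64.7 TPM in cell bodies and 70.1 and 67.4 TPM in protrusions.

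Inside the cell, the Smads and their regulators had a median log2 fold change of 0.26, with 2 of 12 called higher and 0 lower in limma, beside 2.99% and 4.25% of all genes tested. With the replicate block 4 were higher (*Smad1* and *Smad4* in addition) and 0 lower, beside 8.08% and 13.3% of all genes tested. At an unadjusted p under 0.05, 4 were higher and 0 lower, and limma voom called 3 and 0. *Smurf1*, a ubiquitin ligase for Smads and receptors, was at 23.4 and 22.5 TPM in cell bodies and 36.0 and 35.8 TPM in protrusions. Its log2 fold change was 0.63 (adjusted p = 0.0440 in limma, 0.05003 after GC correction). *Ski*, a Smad corepressor, was at 19.6 and 21.5 TPM in cell bodies and 33.2 and 31.5 TPM in protrusions, with a log2 fold change of 0.64 (adjusted p = 0.0466 in limma). Both genes act to restrain Smad signaling, a shared role that was not tested. Of the 12 genes 8 had fold changes above 1 and 4 below. *Smurf2* (log2 fold change −0.17) and *Skil* (−0.20) were below, *Smad6* (0.21) and *Smad7* (0.37) were above, and none of these was called.

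Of 10 tested genes for ligand processing and latency none passed in limma, with 1 higher and 3 lower at an unadjusted p under 0.05 and 0 higher and 1 lower in limma voom. With the replicate block 1 was higher (*Furin*, 0.46, adjusted p = 0.0481 in limma) and 2 were lower (*Pcsk7* and *Ltbp1*), beside 8.08% and 13.3% of all genes tested. The log2 fold change of *Ltbp1* was −0.80 (adjusted p = 0.0123 in limma with the block). *Pcsk7*, a furin-type protease, was at 14.1 and 13.8 TPM in cell bodies and 9.81 and 7.20 TPM in protrusions (log2 fold change −0.70, adjusted p = 0.0762 in limma, 0.0255 with the block). Of 5 extracellular antagonists none passed in limma, with 1 higher and 1 lower at an unadjusted p under 0.05 and 1 higher and 0 lower in limma voom. In the blocked fit 1 was higher and 1 was lower (*Bambi*, a decoy receptor gene, −0.87, adjusted p = 0.0163 in limma), beside 8.08% and 13.3% of all genes tested. The one with the smallest p was *Nbl1*, a BMP antagonist, at 6.85 and 3.94 TPM in cell bodies and 10.5 TPM in each protrusion library (log2 fold change 0.95, adjusted p = 0.0793 in limma, 0.0136 with the block).

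Of 10 target genes of TGFβ and BMP signaling 1 was called higher and 0 lower in limma, 1 and 0 at an unadjusted p under 0.05, and 1 and 0 in limma voom, beside 2.99% and 4.25% of all genes tested. With the replicate block 1 was higher and 3 were lower, beside 8.08% and 13.3% of all genes tested. Those lower were *Ctgf* (−0.59, adjusted p = 0.0168 in limma), *Tgfbi* (−0.54, 0.0353) and *Id1* (−0.42, 0.0481). The gene called higher was *Pmepa1*, a membrane protein gene induced by TGFβ that limits Smad signaling, at 1.63 and 1.43 TPM in cell bodies and 4.84 and 4.12 TPM in protrusions. Its log2 fold change of 1.29 (adjusted p = 0.0382 in limma) was close to that of *Gdf11*, and the 2 fractions were far apart. The median of the 10 was −0.12.

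In the EGF branch every gene that passed was lower in protrusions. All 8 tested EGF receptor and sheddase genes had fold changes below 1, with 3 called lower and none higher in limma, beside 4.25% of all genes tested called lower. *Cd9*, a tetraspanin that binds the HB-EGF precursor, was at 783 and 795 TPM in cell bodies and 426 and 334 TPM in protrusions (log2 fold change −1.06, adjusted p = 0.0342 in limma). *Adam17*, the main sheddase of EGF receptor ligands, was at 57.2 and 57.7 TPM in cell bodies and 33.2 and 24.0 TPM in protrusions (−1.01, adjusted p = 0.0400 in limma). *Adam10*, a related sheddase, had a log2 fold change of −0.65 (adjusted p = 0.0438 in limma, −0.38 and 0.0847 after GC correction). *Adam9* was called lower as well with the block (−0.57, adjusted p = 0.0151 in limma), beside 13.3% of all genes tested. For *Cd9*, *Adam17* and *Adam10* both protrusion libraries were below both cell body libraries, an order shown by 37.0% of all genes tested. Of 4 other EGF family ligands 2 were called lower, beside 4.25% of all genes tested. *Areg*, which encodes amphiregulin, was at 33.6 and 36.0 TPM in cell bodies and 21.0 and 18.0 TPM in protrusions (−0.82, adjusted p = 0.0383 in limma). *Ereg*, which encodes epiregulin, was at 141 and 169 TPM in cell bodies and 97.1 and 82.0 TPM in protrusions (−0.79, adjusted p = 0.0425 in limma, −0.45 and 0.0730 after GC correction). All 4 were called lower with the block, *Btc* (adjusted p = 0.00670 in limma) and *Nrg1* (0.0446) in addition, beside 13.3% of all genes tested. With *Hbegf*, these EGF family ligands had fold changes of the same sign. Of 5 VEGF and PDGF receptor genes, *Pdgfra*, the receptor for PDGF-A, was called lower, beside 4.25% of all genes tested. *Pdgfra* was at 192 and 245 TPM in cell bodies and 112 and 91.0 TPM in protrusions (−1.10, adjusted p = 0.0350 in limma). The neuropilin genes *Nrp1* (−0.88, adjusted p = 0.00519 in limma) and *Nrp2* (−0.66, 0.0128) were called lower as well with the block, beside 13.3% of all genes tested.

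Of 6 tested growth factors that lack a signal peptide, 1 was called higher and 0 lower in limma, beside 2.99% and 4.25% of all genes tested, 1 and 0 at an unadjusted p under 0.05, and 1 and 0 in limma voom and with the replicate block. It was *Hdgf*, a growth factor that is also nuclear, at 308 and 295 TPM in cell bodies and 473 and 455 TPM in protrusions. Its log2 fold change was 0.62 (adjusted p = 0.0367 in limma, 0.0513 after GC correction), and the median of the 6 was 0.03. No difference between ligands with and without a signal peptide was tested. Of 107 genes tested over all these pathway lists limma called 5 higher and 7 lower, beside 2.99% and 4.25% of all genes tested, and with the replicate block it called 10 higher and 28 lower, beside 8.08% and 13.3%. No minimum on TPM or leaving out any 1 library other than protrusions replicate 1 left none of the 12 calls, and without protrusions replicate 1 it called 0 higher and 2 lower (*Cd9* and *Adam17*), beside 14 higher and 144 lower over all genes.

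**Figure D5:**
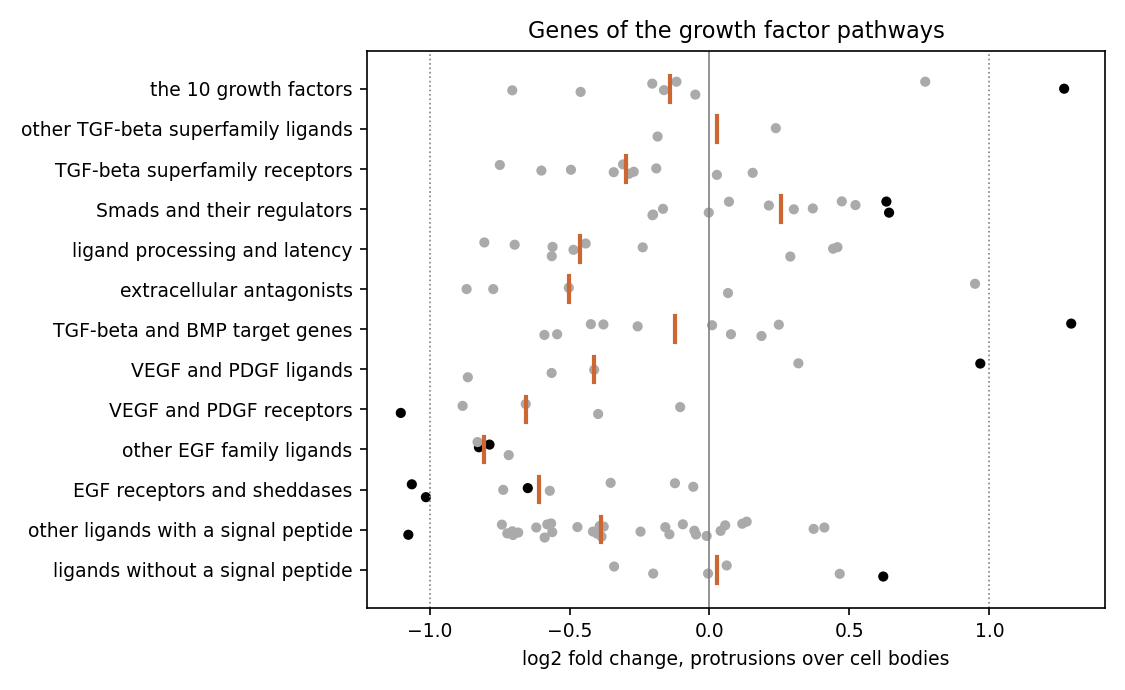
Protrusion enrichment (log2 fold change against cell bodies) of the tested genes of each pathway list; each point is a gene, black where the adjusted p is under 0.05 in limma, orange bars are list medians, and vertical jitter has no meaning. Medians run from −0.80 for the other EGF family ligands to 0.26 for Smads and their regulators, and *Gdf11* is the black point at 1.27 in the top row.

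The genes whose levels over the 4 libraries were most like those of *Gdf11*, by root mean square distance of centred log2(TPM + 0.5), were *Tesk1*, *Med25*, *Ptms*, *Macrod1* and *Palm* among 10549 protein-coding genes. The nearest, *Tesk1*, a kinase gene, was at 7.86 and 5.39 TPM in cell bodies and 14.7 and 16.1 TPM in protrusions, a distance of 0.058. All 5 shared with *Gdf11* a lower level in cell bodies replicate 2 than in replicate 1, and their log2 fold changes were 1.08 to 1.32. Both likenesses follow from how the 5 were picked, over these same libraries.

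The GC content of the transcript was 52.5% in *Gdf11*, above 63.4% of genes, and 62.5% in *Tgfb1*, above 98.7% of genes. *Inhba* was at 41.4%, above 9.07% of genes. After correction of each library for GC content the log2 fold change of *Gdf11* was 1.27 (adjusted p = 0.0422 in limma), that of *Tgfb1* was 0.47 (adjusted p = 0.275 in limma) and that of *Inhba* was −0.18 (adjusted p = 0.601 in limma). The GC content used was that of the whole annotated transcript. The length implied by the values was about 1810 of 4062 bases in *Gdf11*, 1530 of 6390 in *Inhba* and 1020 of 2060 in *Pdgfa*. For these genes the correction may therefore not match the part that was counted.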

How the data were processed

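RNA-seq of YUMM1.7 cell bodies and protrusions was analysed in 4 libraries, grouped by the labels. The authors deposited 1 table of 16537 genes with TPM per library, made from reads aligned to mm10. FastQC, STAR, featureCounts and edgeR stand in the submitters' processing notes with no versions, while the methods of the study give TopHat as aligner. The authors' mean log2 CPM, also deposited, was used only to scale recovered reads. The authors' comparison columns (log2 fold change, likelihood ratio, p-value and FDR) were not used. No per-sample column was left unused. One gene of the marker lists is not reported here.

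Limma 3.58.1 (in R 4.3.3, with a trend) was run on log2(TPM + 0.5) over the 11400 genes with a mean of at least 1 TPM, two-sided, with Benjamini-Hochberg adjustment and a threshold of 0.05. Fold changes are on this scale, which understates changes of low genes, and intervals are 95% confidence intervals before adjustment. Differences between *Gdf11* and other genes were fitted in the same way on log ratios within a library, where every row shares the *Gdf11* values and the prior degrees of freedom were infinite. Scripts were tested on simulated data.

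TPM ratios between libraries gave whole reads for all 16537 genes (100%, within 0.01 reads). These reads gave the depth of each value and a limma voom fit, which called 776 genes higher and 889 lower, against 341 and 485 in the fit of TPM. In a table of the study the cell body and protrusion values of each replicate stand under a heading that calls them paired. Same-numbered libraries also deviated together from their fraction's mean (correlation 0.45 over the tested genes), so the number was taken to pair the samples in the blocked fit. The main fit had no block, because the methods of the study state none for their test. Those methods do describe cell bodies and then protrusions being collected from the same insert. The main fit therefore leaves out a pairing that the fractionation implies, and it called 826 genes against 2434 with the block. The blocked fit is given where it changed the call of a growth factor or the count of a list. The labels call the replicates biological.

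The members and lists were chosen with earlier results of these data known. Genes were named by rule: all 10 growth factors, up to 3 called genes of each list by smallest p (or the gene with the smallest p where none was called) and the 5 genes most like *Gdf11*. GENCODE M21 transcripts gave sequences, lengths and GC content for 98.9% of genes, of which 15710 had the same symbol and 653 were found through RefSeq synonyms. Starts of the deposited coordinates were read as 0-based. Alternatives were other pseudocounts, no minimum level, each library left out, the block, median centring, GC correction and limma voom.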

Additional observations from a re-analysis of the deposited data

How the results depend on the processing

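*Gdf11* was higher in protrusions under all 12 alternatives, with a log2 fold change of 1.02 to 1.52, but its call was lost with no minimum on TPM (1.27, adjusted p = 0.0979 in limma) and without any 1 library (1.02 to 1.52). With no minimum, 0 genes were called in either direction, and so 0 growth factors and 0 pathway genes. With 1 library left out, 0 to 14 genes were called higher and 0 to 144 lower, with 1899 to 3157 genes at an unadjusted p under 0.05. No growth factor was then called (0 higher, 0 lower), and 0 pathway genes were higher and 0 to 2 lower. Leaving out a library leaves 1 sample in its fraction, assumed to vary like the other fraction. Without 1 library in turn the *Gdf11* difference was 0.09 to 0.90 from *Tgfb1* (0.09 without cell bodies replicate 2), 0.96 to 1.68 from *Tgfb2*, 1.13 to 1.64 from *Tgfb3*, 1.26 to 2.20 from *Inhba*, 1.18 to 1.68 from *Vegfa*, 1.26 to 1.68 from *Pdgfa* and 1.43 to 2.51 from *Hbegf*. That from *Tgfb2* lost its call without cell bodies replicate 2 (1.19), at a pseudocount of 0.1 (1.38) and with GC correction (1.17). Limma voom called 776 genes higher and 889 lower, and 15 pathway genes lower. With GC correction 2 pathway genes were called higher (*Ski* and *Pmepa1*), and *Vegfb*, *Smurf1*, *Hdgf*, *Ereg* and *Adam10* lost their calls.

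With the replicate block, 921 genes were called higher and 1513 lower, all 826 genes of the unblocked fit among them, with 10 pathway genes higher and 28 lower and 1 growth factor, *Hbegf*, lower (−0.70). The block widened the error of the *Gdf11* differences, which kept their values (1.32 from *Tgfb2*, 1.39 from *Tgfb3*, 1.73 from *Inhba*, 1.43 from *Vegfa*, 1.47 from *Pdgfa* and 1.97 from *Hbegf*) but not their calls. Replicate block and GC correction together gave 1331 genes higher and 1556 lower, 9 pathway genes higher and 28 lower, 1 growth factor lower (*Hbegf*, −0.63), and differences of 1.17, 1.40, 1.45, 1.38, 1.46 and 1.90 in the same order, none passing. Added after seeing the data, summing the squared standard errors of both genes kept the 6 called differences (adjusted p 0.00500 to 0.0147 in a t-test). That t-test treats the 2 genes as independent, although they share libraries. The causes of these changes were not tested.

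The *Tgfb2* change, near 0, turned positive with median centring (0.029), with GC correction (0.10, also with the block) and without cell bodies replicate 1 (0.07) or protrusions replicate 2 (0.20), and ranged from −0.30 to 0.20 with a library left out. Depth limits *Gdf15* and *Bmp4*, with at most 6 and 21 reads in a library, and *Tgfb1*, with 37 to 104.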
